A study of Homo sapiens with 15 samples.

Results

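The comparison described here sets caMKL1, the constitutively active form of MKL1, against wild-type MKL1 in A375 cells, an established human melanoma line. The joined overexpression tables held 20323 genes, of which 13720 passed the filter on low counts and were tested in 9 libraries. Within these genes, those that changed with caMKL1 but not with MKL1 and those that the 2 forms moved in opposite directions are described in depth. There were 3731 of the first kind and 275 of the second, by rules given below that use the tests themselves.

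The groups were A375 cells carrying a control vector, A375 cells overexpressing MKL1 and A375 cells overexpressing caMKL1, each for 48 hours and each with 3 libraries of polyadenylated RNA. The series also held 6 libraries of A375 cells without a construct, kept for 48 hours in 10% or in 0.1% fetal bovine serum (FBS). For the control vector, MKL1 and caMKL1 libraries no serum level is given. The labels do not say which change in the protein makes caMKL1 active, whether the expressing cells were a clone or a pool, or whether a group's 3 replicates came from cultures grown apart. The p-values therefore measure only the spread between these libraries, which may be technical.

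MKL1, whose approved symbol is MRTFA, is a coactivator of the DNA-binding protein serum response factor (SRF). Its wild-type form binds monomeric actin, which keeps it out of the nucleus, and it is released when actin polymerises after serum is added. A constitutively active form escapes this control. Known targets of the complex include actins, calponins and other contractile genes, and many carry a CArG box, the DNA element that SRF binds, near their start.

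Total counts were between 20387727 and 23957043 in the control vector and MKL1 libraries and between 16557803 and 20895879 with caMKL1. Levels are given in CPM, that is, counts scaled for library size after TMM normalization, and 3 counts over a group, used as a floor for genes without counts, came to between 0.0437 and 0.0554 CPM. MRTFA was at 26.2, 25.7 and 25.8 CPM in control libraries, at 732, 771 and 709 CPM under MKL1 and at 481, 463 and 465 CPM with caMKL1, so the active form was carried at the lower MRTFA count. SRF was at 69.5, 64.0 and 62.0 CPM in control libraries, at 69.5, 74.3 and 70.1 CPM under MKL1 and at 272, 264 and 263 CPM with caMKL1. Of 13 melanocyte and melanoma markers, PMEL and TYR were under 1 CPM in every library, and the summed level of the list was between 3105 and 3312 CPM with MKL1 and between 3248 and 3551 CPM with caMKL1. These sums overlap, while of 12 tested markers 2 were called higher and 7 lower with caMKL1. SOX10, a lineage factor of melanocytes, was between 897 and 990 CPM in control and MKL1 libraries and at 839, 756 and 809 CPM with caMKL1, a log2 difference between the forms of -0.24 ± 0.0463 SE (adjusted p = 0.000365, edgeR). Of 16 leukocyte markers, 14, PTPRC and the CD3 genes among them, were under 1 CPM in every library.

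In the direct comparison 7164 of the 13720 tested genes (52.2%) passed an adjusted p of 0.05 by the quasi-likelihood test of edgeR, adjusted after Benjamini and Hochberg. Of these, 3463 genes (25.2%) were higher and 3701 (27%) lower with caMKL1 than with MKL1, so 48.3% of the calls were higher. Scaled by library totals, without TMM factors, 2750 were higher and 4942 lower, and 35.8% of the calls were higher. The split at larger changes was uneven, with 793 genes (5.78%) at least 2-fold higher and 140 genes (1.02%) at least 2-fold lower. Against the control vector, 8798 genes (64.1%) were called with caMKL1 and 4828 (35.2%) with MKL1, both from the same 3 control libraries.

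A gene counted as changed only by the active form when it was called between caMKL1 and control, called with the same sign between caMKL1 and MKL1, and had an adjusted p of at least 0.05 between MKL1 and control. There were 1929 such genes higher with caMKL1 (14.1% of those tested) and 1802 lower (13.1%). A missed threshold does not show that MKL1 left a gene where it was, so a stricter subset was drawn in which caMKL1 differed from control by at least 2-fold and the 95% interval of the MKL1 change lay within 1.5-fold either way. That subset held 170 higher genes (1.24%) and 39 lower genes (0.284%). A gene counted as moved in opposite directions when both forms were called against control with opposite signs, which took in 161 genes higher with caMKL1 (1.17%) and 114 lower (0.831%). All 275 were also called in the direct comparison. Both changes were at least 1.5-fold in 11 of the first (0.0802%) and 4 of the second (0.0292%). For comparison, 1990 genes (14.5%) were called with both forms in the same direction and were moved further by caMKL1. Called with MKL1 against control and not with caMKL1 were 890 genes (6.49%), of which 554 (4.04% of those tested) also differed between the forms.

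**Figure D1:**
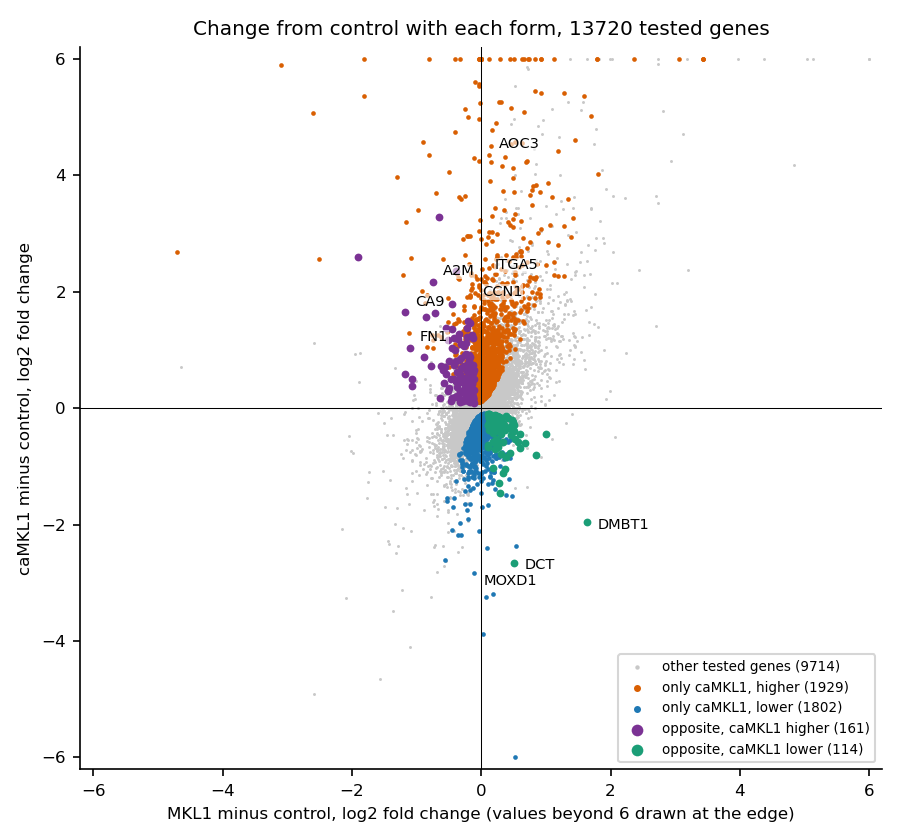
Log2 fold change from control with MKL1 (x axis) and with caMKL1 (y axis) for the 13720 tested genes, both drawn against the same control libraries and limited to 6 either way. The 1929 and 1802 genes changed only by caMKL1 lie on both sides of the vertical axis, with MKL1 changes from -4.70 to 3.44 and from -0.57 to 0.55. The 161 and 114 genes moved in opposite directions lie at the upper left and lower right.

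The rising genes of the active form were often low to begin with. The median FPKM (fragments scaled by gene length and library size, deposited by the authors) in control cells was 5.42 for the 1929 higher genes and 18.6 for the 1802 lower ones, against 10.0 for all tested genes. Under 1 FPKM in control were 500 of the higher genes (25.9%), against 2084 of all tested genes (15.2%). The filter on low counts favours such a difference, since a gene silent in control and MKL1 could pass it through its caMKL1 libraries alone. A gene that falls with caMKL1 had to be detected in control to be called. The median log2 fold change from control with caMKL1 was 0.58 for the higher genes and -0.34 for the lower ones. Among the higher genes, 298 had a mean under 1 CPM in both control and MKL1 libraries, 16 had no count in any of these 6 libraries, and for 482 the MKL1 interval was too wide to stay within 1.5-fold. For these low genes an unchanged level with MKL1 is not shown at this depth.

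Contractile and actin genes were among the largest rises, beside genes of other kinds. CCDC190, NPAS4 and VTCN1 had no count in control or MKL1 libraries. With caMKL1 they were at least 317-fold, 270-fold and 189-fold higher than with MKL1. Of 39 tested genes on a list of MRTF-SRF cytoskeletal targets, 36 were higher and 1, TAGLN2, was lower with caMKL1 than with MKL1, with a median log2 difference of 1.94 against -0.02 over all tested genes. Of the 36, 13 were changed only by the active form (ACTA1, ACTC1, ACTG1, ACTG2, ACTN1, CNN1, CNN3, FHL2, MICAL2, MYH9, PDLIM7, TUFT1 and VIL1) and the other 23 were also called with MKL1 against control and moved further by caMKL1. Of 17 tested smooth and striated muscle genes, 13 were higher and 1 lower with caMKL1, with a median of 2.18, and 25 other genes of that list did not pass the filter on low counts.

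ACTC1 (ENSG00000159251, GRCh38 chromosome 15, 34788095 to 34795726), the cardiac alpha-actin, had no count in 5 of the 6 control and MKL1 libraries and 1 count in the other, against 314, 326 and 312 CPM with caMKL1. From 17162 counts against 1, the ratio of caMKL1 to MKL1 was 21781, with a 95% counting interval from 3909 to 860348. CNN1 (ENSG00000130176, chromosome 19, 11538717 to 11550323), the smooth muscle calponin, was between 0.0824 and 0.193 CPM in control and MKL1 libraries and at 108, 103 and 103 CPM with caMKL1, a log2 difference from MKL1 of 9.58 ± 0.123 SE (adjusted p = 1.14e-19, edgeR). MYL7, the atrial myosin light chain, had no count without caMKL1 and 26.5, 26.4 and 24.2 CPM with it, at least 590-fold higher than with MKL1. KCNMB1, the beta subunit of the smooth muscle calcium-activated potassium channel, was at 135, 137 and 125 CPM with caMKL1 and at or under 0.145 CPM elsewhere. These 4 genes were thus present in all 3 caMKL1 libraries and at or under 0.193 CPM in the 6 others.

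The cytoplasmic and smooth muscle actins rose with the active form from different starting levels. Their coding sequences are close, so reads may be split between them. ACTG1, the cytoplasmic gamma-actin, was at 2520, 2259 and 2207 CPM in control libraries, at 2472, 2663 and 2425 CPM under MKL1 and at 7649, 7407 and 7284 CPM with caMKL1. Its change with MKL1 had a 95% interval from 0.01 to 0.21 on the log2 scale and an adjusted p of 0.0729 (edgeR), and its change from MKL1 to caMKL1 was 1.56 ± 0.0487 SE. ACTG2, the smooth muscle gamma-actin, lay between 0.0451 and 0.33 CPM in control and MKL1 libraries and at 57.8, 55.0 and 48.6 CPM with caMKL1. FHL2, a LIM-domain cofactor and known SRF target, was between 29.1 and 32.9 CPM without and at 77.8, 81.2 and 77.6 CPM with caMKL1. ACTA2, the smooth muscle alpha-actin, differed in that MKL1 moved it too: it was at 3.46 ± 0.364 CPM in control, 12.1 ± 1.69 with MKL1 and 1579.6 ± 54.7 with caMKL1 (SD, n = 3 each).

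The promoters of these actins and of FHL2 are shown because the CArG box in each lies within 200 bases before the RefSeq start, in genes that responded to the active form and were not called with MKL1. The sequences are from RefSeq (GRCh38.p14), read 5′ to 3′ on the strand of the gene, with the CArG boxes in capitals. They are chr15:34795550-34795749 (minus strand, box starting at base -109 from the start) for ACTC1, chr17:81512800-81512999 (minus strand, -94) for ACTG1, chr2:73892808-73893007 (plus strand, 2 boxes, the first at -110) for ACTG2 and chr2:105438514-105438713 (minus strand, -101) for FHL2.
ACTC1: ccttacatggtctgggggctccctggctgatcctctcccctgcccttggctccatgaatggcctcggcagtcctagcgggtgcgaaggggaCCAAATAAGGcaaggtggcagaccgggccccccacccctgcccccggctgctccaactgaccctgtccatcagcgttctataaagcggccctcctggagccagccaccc
ACTG1: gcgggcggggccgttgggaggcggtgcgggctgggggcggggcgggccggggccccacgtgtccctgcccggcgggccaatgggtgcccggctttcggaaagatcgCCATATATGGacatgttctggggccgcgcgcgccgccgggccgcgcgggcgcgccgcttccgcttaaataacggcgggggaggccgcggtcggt
ACTG2: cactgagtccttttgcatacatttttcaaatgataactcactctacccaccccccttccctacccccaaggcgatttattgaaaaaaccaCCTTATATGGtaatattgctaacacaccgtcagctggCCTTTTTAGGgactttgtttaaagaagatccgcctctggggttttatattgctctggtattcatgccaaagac
FHL2: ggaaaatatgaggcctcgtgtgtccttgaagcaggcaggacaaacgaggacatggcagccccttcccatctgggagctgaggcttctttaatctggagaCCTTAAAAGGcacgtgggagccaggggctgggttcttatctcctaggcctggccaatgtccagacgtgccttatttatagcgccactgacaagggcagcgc

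Across the RefSeq promoter table (300 bases a gene, both strands, 11085 of the 13720 tested genes matched), a CArG box stood in 1.22% of tested genes and in 1.29% of all 27305 promoters. It stood in 38 of 1544 promoters of the genes raised only by the active form (2.46%), in 5 of 134 in the stricter subset (3.73%) and in 39 of 607 promoters of genes at least 2-fold higher with caMKL1 than with MKL1 (6.43%). Of the genes lowered only by caMKL1, 17 of 1491 held one (1.14%), and of the genes moved in opposite directions, 3 of 131 higher with caMKL1 (2.29%) and 0 of 96 lower with it. The TEAD motif GGAATG stood in 10.9% of tested genes, in 14.0% of all promoters in the table and in 12.7% of those raised only by caMKL1. The AP-1 motif TGANTCA stood in 4.63% of tested genes, in 7.76% of all promoters, in 5.05% of those raised only by caMKL1 and in 16 of 131 promoters of the oppositely moved genes higher with caMKL1 (12.2%). These are matches of letters in a short window, and a promoter without one may still be bound.

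In the stricter subset, where the MKL1 change was bounded, the largest rise was that of AOC3 (ENSG00000131471, chromosome 17, 42851184 to 42858130), a cell surface amine oxidase known as vascular adhesion protein. AOC3 was at 1.80, 1.64 and 1.38 CPM in control libraries, at 1.65, 2.12 and 1.48 CPM under MKL1 and at 31.7, 33.4 and 33.4 CPM with caMKL1. Control and MKL1 overlapped, and all caMKL1 libraries lay above them, as the rule for naming required. The log2 difference from MKL1 was 4.24 ± 0.111 SE (adjusted p = 1.69e-15, edgeR). EHF (ENSG00000135373, chromosome 11, 34621093 to 34661057), an ETS-family transcription factor of epithelia, was between 0.761 and 1.59 CPM in control and MKL1 libraries and at 10.7 CPM in each caMKL1 library. RAB9B (chromosome X, 103822322 to 103832228), a small GTPase of endosome traffic, was between 1.98 and 2.84 CPM without and at 16.8, 18.8 and 18.7 CPM with caMKL1. Its log2 difference from MKL1 was 2.90 ± 0.124 SE.

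Surface and matrix genes were among the next. ITGA5 (ENSG00000161638, chromosome 12, 54395261 to 54419460), the alpha chain of the fibronectin receptor, was at 279, 265 and 259 CPM in control libraries, at 285, 264 and 281 CPM under MKL1 and at 1348, 1291 and 1246 CPM with caMKL1. The MKL1 change was 0.05 with an interval from -0.04 to 0.14, and the difference between the forms was 2.23 ± 0.0446 SE (adjusted p = 4.19e-17, edgeR). ITGA5 thus rose from an already high level with the active form, while its MKL1 libraries overlapped the controls. EFNA3, an ephrin ligand of Eph receptors, was at 2.48 ± 0.214 CPM in control, 2.60 ± 0.101 with MKL1 and 14.6 ± 0.498 with caMKL1. VWA1, a matrix protein with a von Willebrand domain, was at 7.97 ± 0.341, 6.67 ± 0.246 and 49.3 ± 4.50 CPM. For VWA1 the MKL1 groups did not overlap the controls (adjusted p = 0.0587, edgeR), and it kept its class in 14 of 16 other settings, but not without caMKL1 replicate 1.

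The remaining rises of the rule, as log2 fold changes from control with caMKL1, were C8orf88 (3.02), NECAB1 (2.88), STBD1 (2.38) and SEC14L4 (2.28), besides C3orf70 and ZNF93. STBD1 is a glycogen-binding protein, NECAB1 a neuronal calcium-binding protein and SEC14L4 a lipid-binding protein. C8orf88 and NECAB1 share 394 exonic bases on opposite strands, and the strand setting of the counting is not given in the sources used here; their counts may not be separate. The same limit holds for many genes: of the 271 genes named by rule, 111 share exonic bases with a gene on the other strand and 41 with one on the same strand. Among those described here, at least 500 bases on the other strand are shared by EML5 (5840), ILK (2374), ZEB2 (1299), DDIT4 (847), ATL1 (840), CA9 (643), A2M (561), ALDOA (520) and ACTA2 (516). FAP (638) and LYZ (599), named further below, also share as many. At least 500 on the same strand are shared by INKA2 (5741), STBD1 (1986, with the read-through gene FAM47E-STBD1), ALDOA (1657), EGFL8 (1565), HSPA1B (920), EFNA3 (853) and MYO5B (551). The same holds for UTP14C (4100), PEX19 (2275), CD68 (1789) and SLX1B (1565), named further below. ZNF93, a zinc finger repressor, was between 12.1 and 15.6 CPM in control and MKL1 libraries and at 59.4, 63.8 and 62.6 CPM with caMKL1, but it left the class in 5 of 16 other settings, without MKL1 replicate 1 among them.

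**Figure D2:**
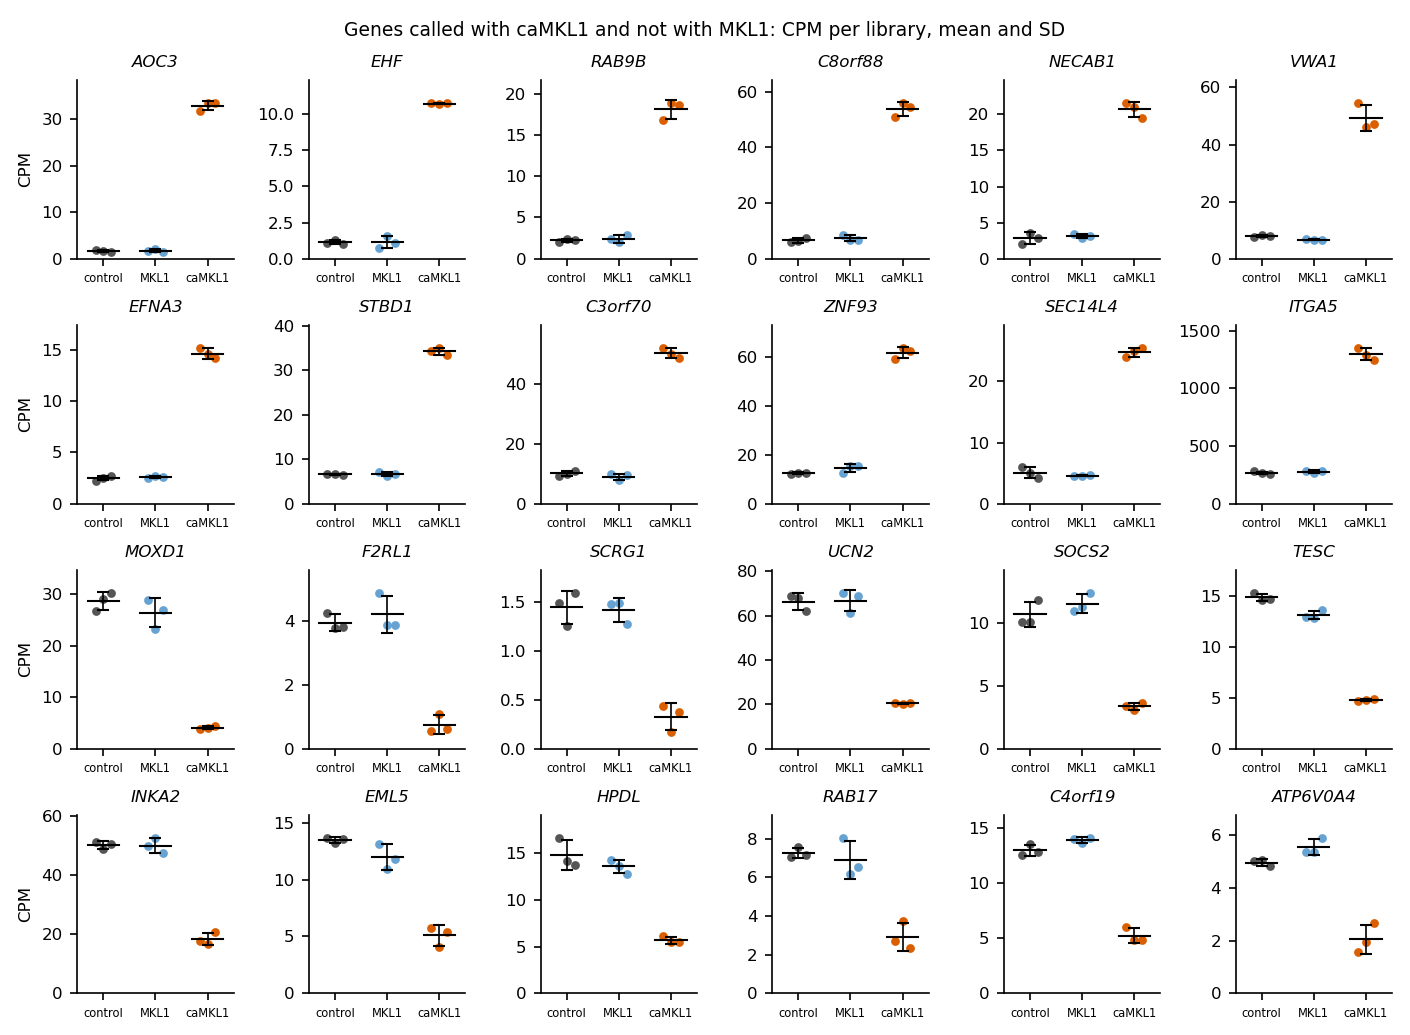
CPM in each library (points), with the mean and SD of 3 libraries (black), for the 12 genes with the largest rises and the 12 with the largest falls in the stricter subset; y axes start at 0 and differ by gene. The choice of genes required the caMKL1 points to lie apart from both other groups, as they do for ITGA5 (1246 to 1348 CPM against 259 to 285) and MOXD1 (3.81 to 4.38 against 23.4 to 30.3).

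The list of focal adhesion and integrin genes, which couple the actin network to the matrix, was split. Of 31 tested, 21 were higher and 6 lower with caMKL1 than with MKL1, with a median of 0.63. Changed only by the active form were 14 higher genes, among them ITGA7, ILK, CAV1, ITGB1 and TLN1, and 2 lower ones, ITGA4 and ITGA6. ITGA7, a laminin receptor chain of muscle, was between 9.19 and 10.3 CPM in control and MKL1 libraries and at 48.6, 40.7 and 44.7 CPM with caMKL1. ILK, the integrin-linked adaptor, was between 61.8 and 72.5 CPM without and at 169, 170 and 168 CPM with caMKL1. CAV1, the caveolar coat protein, was between 117 and 153 CPM without and at 404, 434 and 421 CPM with caMKL1. ITGA4, an integrin chain that binds fibronectin and VCAM1, went the other way, from between 85.5 and 98.2 CPM to 49.9, 52.1 and 52.2 CPM. No library of these 4 genes crossed between caMKL1 and the other groups, where 61.4% of all tested genes also had caMKL1 and MKL1 groups that did not overlap.

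Falls that only the active form gave were smaller than its rises. In the lower class 74 genes were at least 2-fold below control, against 563 at least 2-fold above it in the higher class. Over all tested genes caMKL1 was at least 2-fold above control in 8.07% and at least 2-fold below it in 1.53%. MOXD1 (ENSG00000079931, chromosome 6, 132296055 to 132401545), a monooxygenase related to dopamine beta-hydroxylase, was at 26.9, 29.2 and 30.3 CPM in control libraries, at 28.9, 23.4 and 27.0 CPM under MKL1 and at 3.81, 4.02 and 4.38 CPM with caMKL1. Its log2 difference from MKL1 was -2.71 ± 0.107 SE (adjusted p = 5.78e-13, edgeR), the largest fall in the stricter subset. F2RL1 (chromosome 5, 76818933 to 76835315), the receptor cleaved by trypsin-like proteases, was between 3.76 and 4.86 CPM without and at 0.537, 1.09 and 0.618 CPM with caMKL1. Its caMKL1 values rest on few counts.

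UCN2 (chromosome 3, 48561727 to 48563773), a peptide of the corticotropin-releasing family, was at 66.4 ± 3.82 CPM in control, 66.9 ± 4.76 with MKL1 and 20.5 ± 0.264 with caMKL1. UCN2 shares 289 exonic bases with PFKFB4 on the same strand. SOCS2, an inhibitor of cytokine receptor signals, was at 10.7 ± 1.03, 11.6 ± 0.745 and 3.39 ± 0.275 CPM in the same order. INKA2, an inhibitor of the kinase PAK4, was at 50.3 ± 1.28, 50.1 ± 2.50 and 18.4 ± 2.14 CPM. TESC, a calcium-binding protein, was at 14.9 ± 0.367, 13.1 ± 0.420 and 4.76 ± 0.120 CPM, and its MKL1 libraries also lay below all controls (adjusted p = 0.0688, edgeR). From the lists of growth factors and of TGF-beta and BMP signals, KITLG, the ligand of KIT, was at 5.73 ± 0.476, 6.56 ± 0.315 and 2.64 ± 0.497 CPM, and BMP6, a ligand of BMP receptors, at 5.84 ± 0.746, 6.70 ± 0.762 and 2.72 ± 0.140 CPM. In each of these 6 genes the 3 caMKL1 libraries were the lowest of the 9. The rule that named UCN2, SOCS2, INKA2 and TESC required groups without overlap. In 6926 of all 13720 tested genes the caMKL1 group overlapped neither other group. SCRG1, EML5, HPDL, RAB17, C4orf19 and ATP6V0A4 completed the 12 largest falls, with log2 fold changes from control between -2.11 and -1.29.

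Matrix genes were among those the forms moved in opposite directions. FN1 (ENSG00000115414, chromosome 2, 215360440 to 215436172), which encodes fibronectin, the ligand of the ITGA5 receptor, was at 431, 391 and 377 CPM in control libraries, at 185, 189 and 182 CPM under MKL1 and at 829, 836 and 796 CPM with caMKL1. No groups overlapped: FN1 fell with MKL1 by 1.11 on the log2 scale (adjusted p = 4.33e-11) and rose with caMKL1 by 1.04 (adjusted p = 2.25e-12, both edgeR). Of 43 tested collagens and matrix glycoproteins, 30 were higher and 6 lower with caMKL1 than with MKL1, with a median of 0.60. Of the 43, 9 were lower than control with MKL1 and higher with caMKL1 (COL12A1, COL4A1, COL4A2, COL6A3, COL8A1, FN1, LAMA5, LAMB3 and TNC), and none was moved the other way round. Over all tested genes that class held 1.17%.

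COL6A3, a chain of the microfibrillar type VI collagen, was at 22.9, 24.1 and 22.3 CPM in control libraries, at 10.2, 11.8 and 11.1 CPM under MKL1 and at 30.0, 32.6 and 27.7 CPM with caMKL1. COL8A1, a short-chain collagen, was at 8.56, 11.2 and 9.92 CPM, then at 4.40, 3.61 and 4.99 CPM and at 15.6, 14.2 and 14.5 CPM in the same order. In both, the fall with MKL1 was the larger move, by 1.07 and 1.18 on the log2 scale, against rises with caMKL1 of 0.39 and 0.58. TNC, which encodes tenascin C, showed the reverse proportion: it was at 2753, 2576 and 2535 CPM in control libraries, at 2344, 2140 and 2346 CPM under MKL1 and at 7531, 7291 and 7276 CPM with caMKL1, a change of -0.20 with MKL1 and 1.49 with caMKL1. LAMA5, a laminin chain of basement membranes, was at 69.0, 65.1 and 58.5 CPM, at 54.0, 42.1 and 46.9 CPM and at 163, 134 and 143 CPM.

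CA9 (ENSG00000107159, chromosome 9, 35673856 to 35681159), a surface carbonic anhydrase known as a hypoxia gene, was at 17.2, 15.8 and 15.3 CPM in control libraries, at 7.36, 6.70 and 7.21 CPM under MKL1 and at 53.4, 51.2 and 46.9 CPM with caMKL1. Its log2 changes from control were -1.18 with MKL1 (adjusted p = 6.21e-08) and 1.65 with caMKL1 (adjusted p = 1.2e-12, both edgeR). CA9 shares 643 exonic bases with ARHGEF39 on the other strand. A2M (ENSG00000175899, chromosome 12, 9067664 to 9116229), a broad protease inhibitor of plasma, was at 51.4, 48.3 and 45.3 CPM, at 31.6, 23.2 and 30.9 CPM and at 233, 211 and 209 CPM in the same order. ADGRF1, an adhesion G protein-coupled receptor, was at 5.23, 5.35 and 4.86 CPM, at 3.09, 3.08 and 2.84 CPM and at 7.71, 8.32 and 9.45 CPM. The 3 groups were apart in each of these genes, in the order MKL1, control, caMKL1.

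The other genes that the rule named here stood near the limit of detection or the threshold. PLXNA4, a semaphorin receptor, had 3 counts in all with MKL1 and 60 with caMKL1, a ratio of 25.4 with a 95% counting interval from 8.28 to 127, and kept its class in 2 of 15 other settings. ATL1, a GTPase of the endoplasmic reticulum, kept it in 5 of 16. MYO5B, a motor of vesicle recycling, was at 1.27 ± 0.282 CPM in control, 0.685 ± 0.162 with MKL1 and 2.35 ± 0.157 with caMKL1, and kept its class in 12 of 16 settings. MAOB, a monoamine oxidase of the mitochondrion, kept it in 14 of 16. CA9, FN1, A2M and ADGRF1 kept it in all 16. The matricellular gene CCN2 was opposed in unequal steps, small with MKL1 (-0.38 on the log2 scale) and large with caMKL1 (2.35). CCN2 was at 49.3, 39.8 and 42.9 CPM in control libraries, at 30.1, 39.4 and 32.0 CPM under MKL1 and at 222, 234 and 217 CPM with caMKL1.

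Genes that rose with MKL1 and fell with caMKL1 numbered 114 against the 161 of the other orientation, but 233 against 87 with library totals and 117 against 106 in fits on the 6 libraries of each comparison. DMBT1 (ENSG00000187908, chromosome 10, 122560665 to 122643736), a secreted scavenger glycoprotein of mucosa, was at 2.03, 1.45 and 1.13 CPM in control libraries, at 4.95, 4.10 and 5.27 CPM under MKL1 and at 0.391, 0.574 and 0.185 CPM with caMKL1. Its log2 changes from control were 1.64 with MKL1 (adjusted p = 3.8e-05) and -1.96 with caMKL1 (adjusted p = 0.000111, both edgeR). HSPA1B (chromosome 6, 31827735 to 31830255), an inducible heat shock chaperone, was at 101, 93.1 and 95.6 CPM, at 160, 160 and 146 CPM and at 58.8, 65.4 and 66.1 CPM in the same order. HSPA1B has the near copy HSPA1A, and reads may be split between them. ITGB4, the integrin chain of hemidesmosomes, was at 3.90 ± 0.289 CPM in control, 5.76 ± 0.461 with MKL1 and 2.59 ± 0.222 with caMKL1.

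BBC3, which encodes the cell death protein PUMA, was at 4.51, 5.69 and 5.53 CPM in control libraries, at 8.46, 6.89 and 7.09 CPM under MKL1 and at 4.10, 3.56 and 3.09 CPM with caMKL1. SCARA5, a scavenger receptor for ferritin, was at 22.8 ± 0.847, 34.6 ± 4.21 and 14.1 ± 2.30 CPM. KDR, the receptor of vascular endothelial growth factor, rose with MKL1 and fell below control with caMKL1, at 6.45, 5.20 and 5.65 CPM, then 12.2, 10.9 and 11.7 CPM and then 4.64, 4.07 and 3.95 CPM. In BBC3, SCARA5 and KDR no caMKL1 library reached the lowest control. The pigment genes DCT, which makes a melanin precursor, and MITF, the master factor of melanocytes, belonged here too, on a melanocyte lineage list with 2 higher and 6 lower genes of 16. DCT was at 2.73 ± 0.141, 3.85 ± 0.775 and 0.434 ± 0.123 CPM, and MITF at 38.2 ± 3.35, 51.1 ± 2.24 and 33.9 ± 1.73 CPM. The control and caMKL1 libraries of MITF overlapped, and DCT lost the class in 6 of 16 settings, with each single control library left out among them. ZNF488 kept it in 14 and EGFL8 in 4 of 16.

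**Figure D3:**
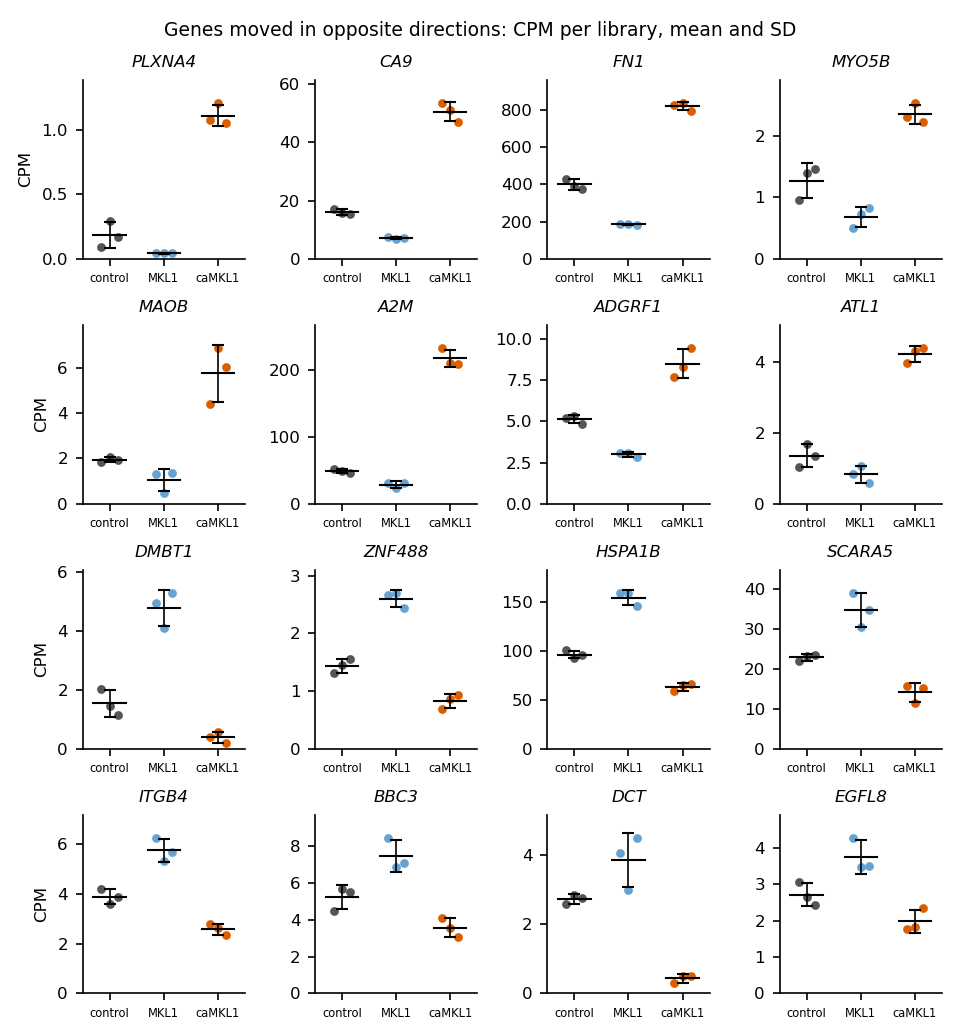
CPM in each library (points), with the mean and SD of 3 libraries (black), for the 8 genes in each orientation with the largest opposed changes; y axes start at 0 and differ by gene. For CA9, FN1 and A2M the groups lie in the order MKL1, control, caMKL1, and for DMBT1 and HSPA1B in the order caMKL1, control, MKL1.

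The sizes of the opposed classes depended on single libraries as well as on the threshold. The median log2 fold changes from control of the 161 genes were 0.42 with caMKL1 and -0.23 with MKL1, and those of the 114 genes were -0.30 and 0.24. Without control replicate 2 there were 106 and 67 genes, and without MKL1 replicate 3 the second class held 66.

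Outside the cytoskeleton and matrix, lists differed in direction. Of 24 tested YAP-TAZ targets, genes induced by spreading and tension, 13 were higher and 4 lower with caMKL1 than with MKL1, with a median of 0.21. CCN1, a matricellular relative of CCN2, was at 43.0, 40.1 and 39.2 CPM in control libraries, at 35.8, 40.2 and 34.7 CPM under MKL1 and at 179, 189 and 170 CPM with caMKL1. F3, tissue factor, was between 2.99 and 3.64 CPM without and at 12.1, 13.1 and 11.5 CPM with caMKL1. Of 28 immediate early genes 12 were higher and 6 lower, with a median of 0.10. FOSL2, an AP-1 subunit, was between 19.4 and 24.8 CPM without and at 58.0, 58.3 and 55.3 CPM with caMKL1, while JUN, its partner, moved in opposite directions at 15.1, 15.4 and 14.2 CPM, 10.3, 12.9 and 11.0 CPM, and 20.7, 20.2 and 20.7 CPM.

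Growth and division genes were lower with the active form than with MKL1, which itself lowered many of them. All 24 called genes of 25 tested for ribosome biogenesis were lower than with MKL1, with a median of -0.39, and 11 of them were changed only by caMKL1. POLR1B, a subunit of RNA polymerase I, was at 152, 144 and 145 CPM in control libraries, at 147, 145 and 149 CPM under MKL1 and at 97.9, 102 and 96.9 CPM with caMKL1. Of 46 mitotic and DNA replication genes, 34 were lower and 0 higher, with a median of -0.25, and 14 were lowered only by caMKL1. BUB1, a kinase of the spindle checkpoint, was at 76.1, 72.5 and 77.8 CPM, at 76.6, 82.0 and 83.4 CPM and at 56.6, 60.9 and 59.5 CPM. The changes were small, and none of either list reached 2-fold. Against control, MKL1 gave 13 lower and 0 higher of the ribosome biogenesis genes. It gave 29 lower and 2 higher of the mitotic and replication genes, where 19.4% of all tested genes were lower with MKL1. Of 23 genes of the ATF4 stress response 13 were lower and 4 higher, with a median of -0.23. With MKL1 against control 14 of them were lower and 2 higher. DDIT4, an inhibitor of mTORC1 signals, was between 183 and 208 CPM without and at 124, 113 and 115 CPM with caMKL1.

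Of 28 glycolysis and hypoxia genes 18 were higher and 2 lower with caMKL1 than with MKL1, with a median of 0.25, and 9 were raised only by caMKL1. PDK1, a kinase that limits entry of pyruvate into the mitochondrion, was between 31.0 and 36.9 CPM without and at 54.4, 63.4 and 55.2 CPM with caMKL1. ENO2, an enolase, was between 42.5 and 49.7 CPM without and at 86.8, 85.2 and 88.4 CPM with it. ALDOA, an aldolase, moved in opposite directions at 1572, 1476 and 1451 CPM in control libraries, 1333, 1337 and 1275 CPM with MKL1 and 2072, 2055 and 2012 CPM with caMKL1. PFKFB4, which sets the level of a glycolytic activator, did so in the other sense, at 99.0, 93.1 and 97.3 CPM, 111, 99.6 and 116 CPM, and 63.3, 64.6 and 65.7 CPM.

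The series as a whole concerns killing of melanoma cells by T lymphocytes, so a list of lymphocyte ligands, adhesion molecules and death receptors was examined. Of 29 tested, 15 were higher and 6 lower with caMKL1 than with MKL1, with a median of 0.25. Over all tested genes 25.2% were higher and 27% lower, and 14.1% were raised and 13.1% lowered only by caMKL1. Raised only by the active form were 9, among them the checkpoint ligand CD274, at 2.16, 2.65 and 1.72 CPM in control libraries, 1.95, 2.75 and 1.85 CPM with MKL1 and 7.18, 7.63 and 6.30 CPM with caMKL1. ULBP2, a ligand of the killer receptor NKG2D, was at 11.7 ± 0.417, 10.8 ± 0.627 and 35.3 ± 1.33 CPM. VTCN1, an inhibitory ligand of the B7 family, had no count in control or MKL1 libraries and was at 8.34 ± 1.12 CPM with caMKL1, at least 189-fold higher than with MKL1. Lowered only by caMKL1 were 4 of the 29, near the share over all tested genes. They were BID, which links death receptors to the mitochondrion, TNFRSF10A and TNFRSF10B, the TRAIL receptors, and TNFRSF1A. Their log2 differences from MKL1 were -0.46, -0.57, -0.14 and -0.26. PVR, a ligand of CD226 and TIGIT, moved in opposite directions by small steps, at 148, 148 and 144 CPM, 132, 139 and 133 CPM, and 230, 237 and 235 CPM.

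Over all tested genes 25.2% were higher and 27% lower with caMKL1 than with MKL1. Beside these shares, calls went both ways among ERK pathway feedback genes (7 higher and 9 lower of 20), interferon-stimulated genes (11 and 8 of 35), cholesterol biosynthesis (5 and 8 of 23) and secreted proteases with their inhibitors (5 and 11 of 24). Within them single genes differed by more than 2-fold. HBEGF, a ligand of the EGF receptor, was between 8.00 and 10.6 CPM without and at 28.0, 28.9 and 28.9 CPM with caMKL1, while SPRY1, an inhibitor of ERK signals, was at 5.42 ± 0.269 CPM in control, 6.91 ± 0.552 with MKL1 and 2.92 ± 0.804 with caMKL1. MMP1, the interstitial collagenase, was at 3.01 ± 0.745, 4.09 ± 0.475 and 1.29 ± 0.174 CPM, and TIMP2, an inhibitor of such proteases, at 125 ± 1.47, 119 ± 3.71 and 287 ± 3.32 CPM. Of 24 genes of dedifferentiated melanoma 8 were higher and 5 lower, with a median of 0.04 that turned to -0.03 with library totals. ZEB1, a repressor of epithelial genes, was at 49.5 ± 2.78, 52.7 ± 0.606 and 108 ± 4.10 CPM, and its relative ZEB2 at 67.9 ± 2.04, 74.7 ± 0.616 and 58.0 ± 1.20 CPM, so the active form raised the first and lowered the second.

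Most other lists held more higher than lower calls with caMKL1. Among growth factors and receptors 16 of 35 were higher and 8 lower, among TGF-beta and BMP signals 10 and 5 of 25, among NF-kappaB feedback genes 9 and 3 of 17, and among genes of MHC class I presentation 12 and 2 of 23. LTBP1, which stores latent TGF-beta in the matrix, was between 6.57 and 7.95 CPM without and at 30.4, 32.7 and 34.3 CPM with caMKL1. B2M, the shared chain of class I molecules, was at 407 ± 12.8, 406 ± 3.10 and 485 ± 11.2 CPM. Of 13 tested chemokines and cytokines 7 were higher and 4 lower. CCL2, a monocyte attractant, was between 0.701 and 1.52 CPM without and at or under 0.115 CPM with caMKL1, while IL6 had 2 counts with MKL1 and 119 with caMKL1, a ratio of 75.5 with a 95% counting interval from 20.5 to 631. Among 27 CDK inhibitors and p53 targets 13 were lower and 5 higher, with a median of -0.14.

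**Figure D4:**
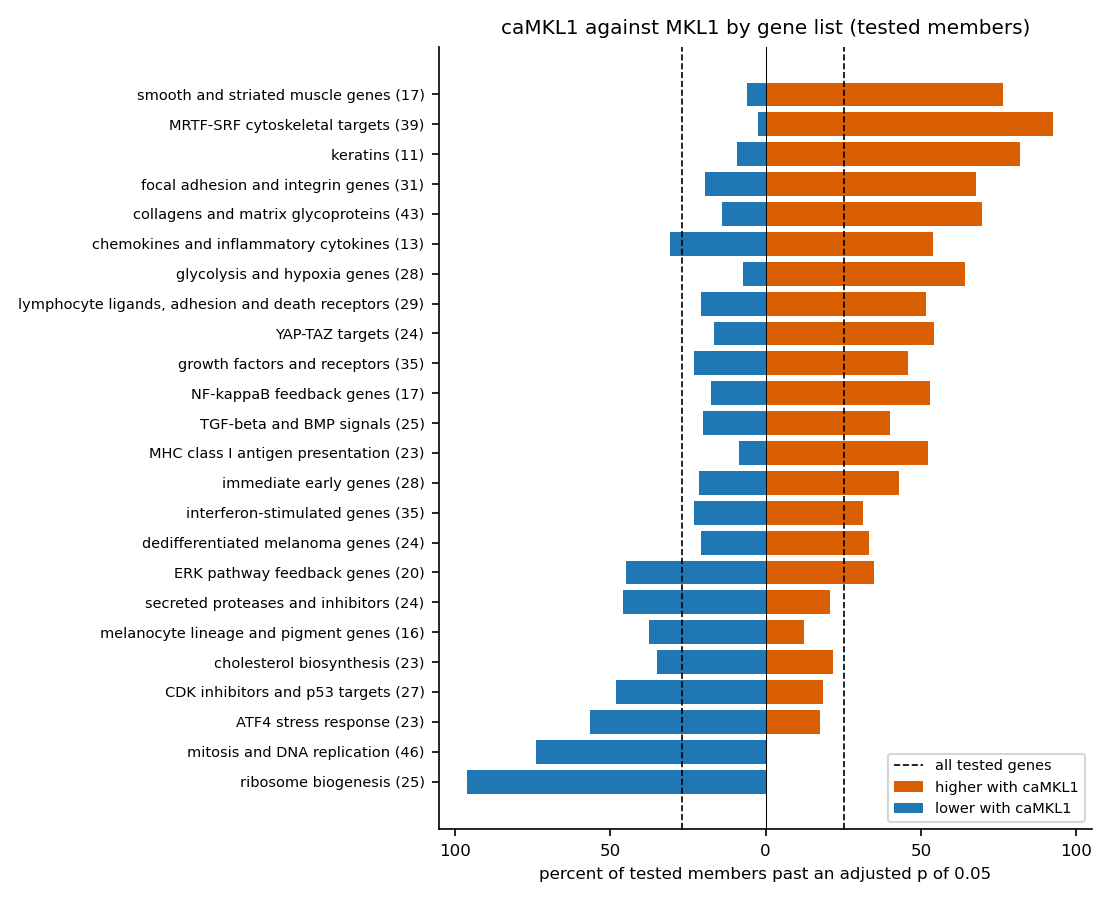
Percent of the tested members of each list shown past an adjusted p of 0.05 in caMKL1 against MKL1, lower to the left and higher to the right, ordered by median log2 difference; numbers after the names are the members tested and dashed lines show all tested genes (25.2% higher, 27% lower). MRTF-SRF targets reach 36 of 39 to the right, and ribosome biogenesis 24 of 25 to the left.

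Genes named for other tissues also moved. Of 11 tested keratins 9 were higher and 1 lower with caMKL1 than with MKL1, with a median of 0.77, and KRT17 was at or under 0.211 CPM without and at 8.64, 8.72 and 9.39 CPM with caMKL1. Of 11 epithelial markers, CDH1, EPCAM and KRT19 were under 1 CPM in every library, and the summed level of the list was between 222 and 246 CPM with MKL1 and between 203 and 209.5 CPM with caMKL1. Of 9 endothelial markers, CDH5 rose from at most 0.247 CPM to between 2.22 and 3.22 CPM, PECAM1, TIE1 and CLDN5 were under 1 CPM in every library, and the summed level was between 19.8 and 21.1 CPM with MKL1 and between 17.2 and 22.3 CPM with caMKL1. Of 10 fibroblast markers, THY1 and COL1A2 were under 1 CPM in every library, and PDGFRA (ENSG00000134853) was between 2.65 and 3.95 CPM. The sum of that list was between 24.5 and 31.0 CPM with MKL1 and between 32.0 and 35.3 CPM with caMKL1. Called higher were COL3A1 and LUM, the latter at 6.81, 6.21 and 6.80 CPM with MKL1 and 12.8, 12.1 and 11.3 CPM with caMKL1. COL1A1 was called lower, at 3.26, 2.60 and 2.68 CPM with MKL1 and 1.71, 1.78 and 2.10 CPM with caMKL1. The sum of the leukocyte list was between 50.1 and 55.1 CPM with MKL1 and between 65.7 and 72.4 CPM with caMKL1. The higher sum came from a single gene, CD68, whose mean was 41.4 CPM under MKL1 against 58.1 CPM for the active form. LYZ did not rise, and its libraries overlapped (MKL1 9.19 to 10.1 CPM, caMKL1 8.43 to 9.39 CPM). The remaining 14 leukocyte markers stayed under 1 CPM throughout. Called higher and lower between the forms were 2 and 2 of 5 epithelial, 4 and 1 of 6 endothelial, 2 and 1 of 8 fibroblast and 1 and 0 of 3 leukocyte markers. The part of such markers in the other results was not tested.

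The starvation libraries were independent of the overexpression fit and give the same genes in cells whose serum was withdrawn. Of 13079 genes tested in both sets, 4070 (31.1%) were higher and 4159 (31.8%) lower in 0.1% than in 10% FBS. Among 1743 genes raised only by caMKL1, 672 were higher in 0.1% FBS (38.6%) and 395 lower (22.7%), while among 1786 genes lowered only by caMKL1, 418 were higher (23.4%) and 762 lower (42.7%). In the stricter subset of rises the counts were 52 and 53 of 169. In the stricter subset of falls 18 of 38 were higher (47.4%) and 11 lower (28.9%), so it leaned the other way from the full lower class. Of the oppositely moved genes higher with caMKL1, 46 of 160 were higher (28.8%) and 58 lower (36.3%), and of those lower with caMKL1, 49 of 112 were higher (43.8%) and 35 lower (31.3%).

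Single members shifted widely. A2M was at 17.6, 17.7 and 17.0 CPM with full serum (10% FBS) and rose to 461, 406 and 446 CPM in 0.1% FBS, a log2 fold change of 4.65 (adjusted p = 1.1e-15, edgeR), and CA9 at 0.529, 0.661 and 0.448 CPM against 12.9, 11.1 and 10.8 CPM. Both were thus raised by low serum and by caMKL1, and lowered by MKL1. FN1 followed the same pattern, at 34.1, 30.1 and 31.1 CPM against 106, 95.4 and 114 CPM. The 2 sets differed in baseline. Control vector cells, whose serum level is not given, averaged 48.3 CPM for A2M and 16.1 CPM for CA9. The matricellular genes, also raised by caMKL1, went down with low serum: CCN2 was at 19.9, 20.3 and 17.8 CPM with full serum and fell to 1.31, 1.32 and 1.07 CPM, and CCN1 at 38.8, 43.5 and 39.3 CPM against 6.83, 7.01 and 8.47 CPM. ATP6V0A4, a proton pump subunit lowered only by caMKL1, was at 8.16, 8.83 and 6.92 CPM against 94.9, 97.8 and 90.4 CPM. ITGA5, raised by caMKL1, was lower in low serum, going from 325, 349 and 305 CPM to 254, 250 and 236 CPM without overlap.

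**Figure D5:**
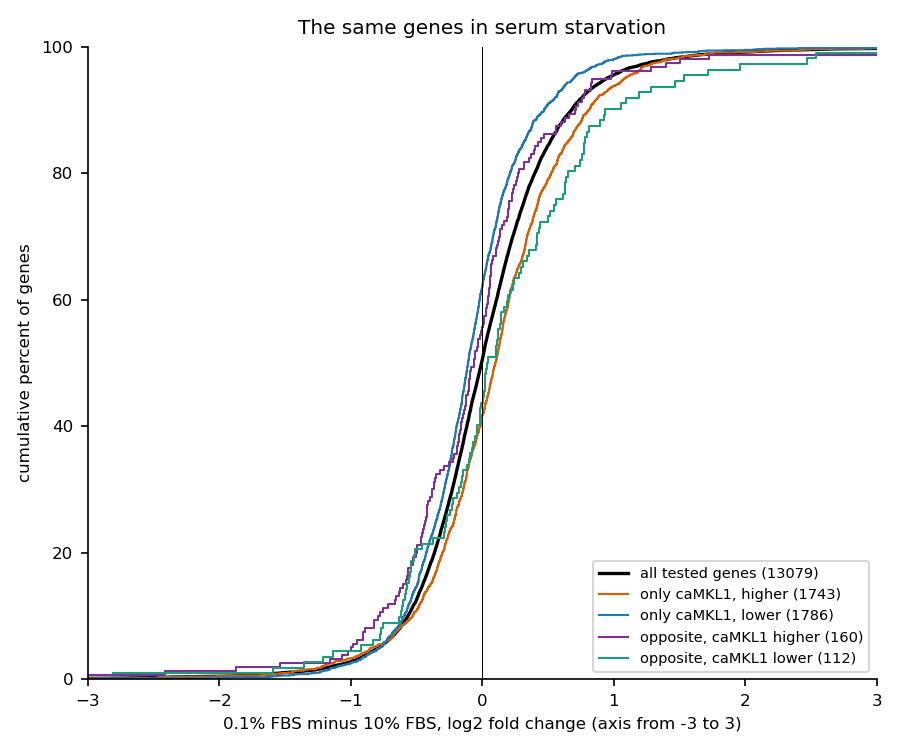
Cumulative percent of genes by their log2 fold change in 0.1% against 10% FBS, for all 13079 genes tested in both sets and for the 4 classes. The curve of genes raised only by caMKL1 lies to the right of all genes (38.6% called higher against 31.1%) and that of genes lowered only by caMKL1 to the left (42.7% called lower against 31.8%).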

How the data were processed

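Gene counts per library, deposited by the authors in tables that each pair control vector with one form, were used as deposited; control counts were identical in both tables for 20323 genes. They are whole numbers, but the submitters' processing notes name RSEM beside Bowtie2 2.2.8, HISAT2 2.2.4, StringTie 1.3.1, DESeq2 and GRCh38, so they may be rounded estimates. Annotation and strand setting: not given in the sources used here. FPKM values, deposited by the authors, only describe levels. One edgeR 4.0.16 model (R 4.3.3; filterByExpr, TMM, two-sided quasi-likelihood tests, Benjamini-Hochberg) covered 9 overexpression libraries, and another 6 starvation libraries. SEs are log2 fold changes over the root of F; counting intervals are exact. Coordinates are from GENCODE 29. Named genes were MRTFA, SRF, and the largest changes at 1 CPM or more in the direct comparison, stricter subsets and opposed classes. Up to 4 members per list by p and per class were added. Groups without overlap were required in the direct comparison and stricter subsets, but not in the opposed classes. Symbols with 2 gene IDs were counted by ID in the lists. Some genes and 1 list are not reported here. Members and lists were chosen with earlier results of these data known. Tests were checked on simulated counts. Alternatives were other scalings, filters, DESeq2 1.42.0, single fits, a replicate block and leaving out each library.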

Additional observations from a re-analysis of the deposited data

How the results depend on the processing

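The numbers of genes called, of genes changed only by caMKL1 and of their stricter subsets stayed within 1.5 times the reported ones under every alternative except fold thresholds. With at least 2-fold between the forms, 793 and 140 genes were called and 510 and 69 were changed only by caMKL1, higher and lower; with 1.5-fold from control in both, 11 and 4 were opposed. The opposed classes moved most. Library totals in place of TMM factors gave 87 higher and 233 lower, with 7 in the stricter higher subset; DESeq2 gave 75 lower; and fits on the 6 libraries of each comparison gave 106 higher and 117 lower. In this order of classes and with higher before lower, leaving out 1 library gave between 3122 and 3908 and between 2986 and 3833 genes called, between 1788 and 2225 and between 1497 and 1977 changed only by caMKL1, between 159 and 180 and between 37 and 43 in the stricter subsets, between 106 and 163 and between 66 and 113 opposed, and between 8 and 12 and between 3 and 6 in their stricter subsets. With library totals 1426 of the 1929 genes raised only by caMKL1 kept their class, and 87 of the 161 opposed genes higher with it. Over the 271 named genes, no difference between the forms changed sign under an alternative; 17 genes fell short of the threshold under at least 1 alternative, LTBP2 under 12, and FAP passed it under 3. The starvation counts stayed within 1.5 times.

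Samples share replicate numbers across groups. Deviations of same-numbered libraries correlated between -0.127 and 0.0983, and those of differently numbered ones between -0.114 and 0.106. The libraries were therefore treated as unpaired. With 3 libraries a group, this cannot show whether same-numbered cultures were handled together. With a replicate block 3561 genes were higher and 3835 lower, 1887 and 1747 were changed only by caMKL1, and 193 and 145 were opposed; VWA1 and ZNF93 were among the named genes that left their class.

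Depth limits low genes: of the 1929 genes raised only by caMKL1, 298 were under 1 CPM in control and MKL1. Of the largest direct falls, UTP14C and SLX1B have near copies, and SLX1B and PEX19 each lost the call under at least 1 alternative. The caMKL1 libraries had fewer MRTFA counts than the MKL1 libraries, and MRTFA protein was not measured here.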

Other observations

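There were 84 genes called with both forms in the same direction that lay nearer control with caMKL1. S100B, a calcium-binding protein used as a melanoma marker, was one, at 40.0, 40.0 and 38.1 CPM in control libraries, 72.9, 69.3 and 72.2 CPM with MKL1 and 56.2, 50.1 and 52.4 CPM with caMKL1. The 3 groups did not overlap, and the difference between the forms was -0.43 on the log2 scale (adjusted p = 2.08e-06, edgeR's quasi-likelihood test).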
